A study of Mus musculus with 6 samples.

Results

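The genes described here are 10 members of cytochrome P450 family 2 in mouse liver: Cyp2a4, Cyp2a5, Cyp2a12 and Cyp2a22, Cyp2d9, Cyp2d10, Cyp2d22 and Cyp2d26, Cyp2j5, and Cyp2u1. They were chosen by gene symbol from 4 subfamilies, and all 10 were found among the 16426 genes of the authors' deposited table, where 9 of them were tested. Liver RNA of male C57/BL mice was sequenced in bulk, in 6 labelled samples. By the labels, 3 samples come from mice given carbon tetrachloride (CCl4) at 20% over 10 weeks, which led to liver fibrosis, and 3 from normal mice that received saline. Whether each sample is a separate mouse is not stated, so the p-values measure the spread between these libraries, which may be technical. CCl4 is a solvent that liver P450 enzymes turn into reactive radicals. The series also names mice given CCl4 and the flavonoid didymin, which were not analysed here.

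The authors' deposited table compares 3 libraries called ly_A with 3 called ly_B. No label of a sample carries either name, so neither set could be tied to the CCl4 or to the normal mice, and no difference below is stated as an effect of CCl4. The values of the single libraries match no label of a sample either, and by choice they entered no calculation. The spread between libraries enters only through the authors' p-values and was not calculated within either set. Every log2 fold change is the authors' value and is taken as ly_A over ly_B, so that a positive value means higher in ly_A. Genes with an adjusted p under 0.05 were called.

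Cytochrome P450 enzymes are haem proteins of the endoplasmic reticulum that insert oxygen into drugs, steroids, bile acids and fatty acids. They take electrons from NADPH through cytochrome P450 oxidoreductase, at times with help from cytochrome b5. In liver they are made mainly by hepatocytes, and many of them are most abundant in the hepatocytes around the central vein. Mouse Cyp2a and Cyp2d genes lie in clusters of similar copies.

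Of the 9 tested genes, 6 were higher in ly_A and 0 were higher in ly_B by the authors' deposited table. Over all 14114 tested genes, the share called was 18.1% towards ly_A and 17.7% towards ly_B. The median log2 fold change of the 9 was 0.94 by the authors' deposited table, against 0.07 over all tested genes. The genes called were Cyp2a5, Cyp2d9, Cyp2d10, Cyp2d22, Cyp2j5 and Cyp2u1. Cyp2a12, Cyp2a22 and Cyp2d26 did not pass, and Cyp2a4 was not tested. At an adjusted p under 0.01, 5 of the 9 were higher in ly_A and 0 in ly_B, where the shares of all tested genes were 12.3% and 12.7%. With a 2-fold minimum the counts were 3 and 0, against 10.9% and 7.85% of all tested genes. A Bonferroni adjustment also gave 3 and 0, against 4.58% and 4.81%, and an adjustment over every row gave 6 and 0, against 17.4% and 17.0%. In bulk liver, fewer cells of a type and less RNA per cell cannot be told apart.

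**Figure D1:**
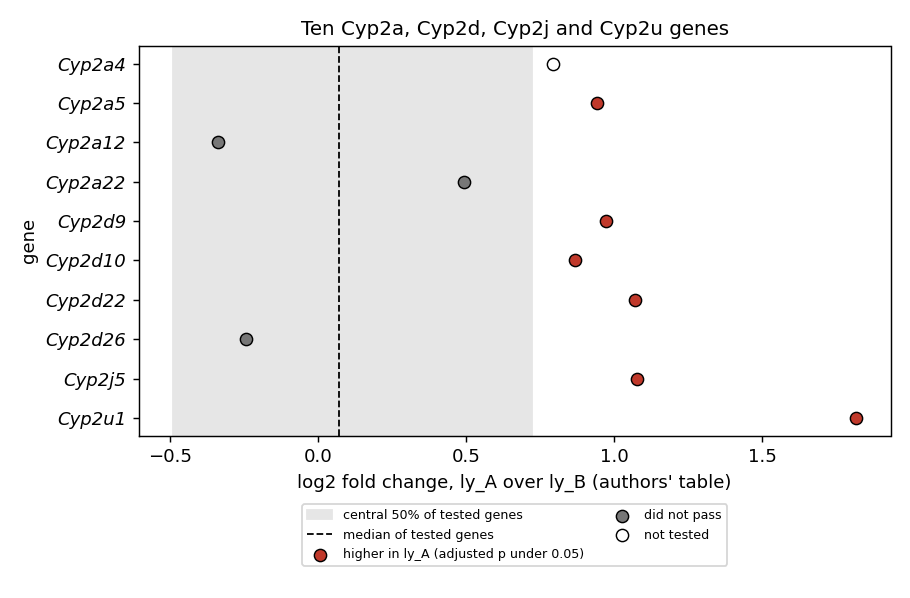
Log2 fold change of each of the 10 genes, ly_A over ly_B, from the authors' deposited table. The dashed line is the median of all tested genes (0.07) and the grey band holds the central 50% of them (-0.49 to 0.72). The 6 genes called higher in ly_A lie to the right of the band, the 3 that did not pass lie inside it, and the open point for Cyp2a4 was not tested.

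Among the Cyp2a genes, Cyp2a5 was the one called. Cyp2a5, a coumarin hydroxylase found mainly in hepatocytes around the central vein, was 1.92-fold higher in ly_A by the authors' deposited table (log2 0.94, adjusted p = 0.00682). Cyp2a12, which hydroxylates bile acids, had a log2 value of -0.34 by the authors' deposited table (adjusted p = 0.242). Cyp2a22 had a log2 value of 0.49 by the authors' deposited table (adjusted p = 0.765). Neither of these 2 genes passed, and their values lie on opposite sides of 0. Cyp2a4, a steroid hydroxylase known for higher levels in female than in male mouse liver, was listed with a log2 value of 0.79 and a p-value of 1 by the authors' deposited table. It was 1 of 122 genes listed with a p-value of exactly 1, none of which entered the adjustment, and its value is not read as a difference.

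The 4 Cyp2a genes form 2 pairs by sequence. The coding sequences of Cyp2a4 and Cyp2a5 were identical at 98.4% of aligned bases, and those of Cyp2a12 and Cyp2a22 at 97.0%. Between the pairs the identity was 74.9% to 76.2%. Their promoters, taken as 250 bases before to 50 after the RefSeq start (GRCm38.p6), followed the same pairs, with 97.7% identity for Cyp2a4 and Cyp2a5 and 84.2% for Cyp2a12 and Cyp2a22. The last 110 bases before the start are shown because they let the called Cyp2a5 be read beside the untested Cyp2a4 and the pair that did not pass. Capitals mark the TATA-type letters TATAAA.
Cyp2a5: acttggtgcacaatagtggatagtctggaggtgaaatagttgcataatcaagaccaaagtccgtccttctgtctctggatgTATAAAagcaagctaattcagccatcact
Cyp2a4: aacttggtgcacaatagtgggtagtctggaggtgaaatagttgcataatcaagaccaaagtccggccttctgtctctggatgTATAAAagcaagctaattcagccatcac
Cyp2a12: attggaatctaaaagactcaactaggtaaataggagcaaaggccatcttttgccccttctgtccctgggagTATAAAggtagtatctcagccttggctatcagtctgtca
Cyp2a22: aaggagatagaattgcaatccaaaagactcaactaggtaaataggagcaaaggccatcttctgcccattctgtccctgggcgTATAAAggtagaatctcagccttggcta
They lie at chr7:26835229-26835338 on the plus strand, chr7:26307082-26307191 on the plus strand, chr7:27028980-27029089 on the plus strand, and chr7:26939387-26939496 on the minus strand. The longest run of identical letters in these stretches was 45 bases for Cyp2a4 and Cyp2a5 and 39 bases for Cyp2a12 and Cyp2a22, against 9 bases for Cyp2a5 and Cyp2a12. The first T of the capitals stood at position -29 in Cyp2a5, -28 in Cyp2a4, -39 in Cyp2a12 and -28 in Cyp2a22, counted from the start.

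Among the Cyp2d genes, 3 of 4 were higher in ly_A by the authors' deposited table, by 1.82-fold to 2.10-fold. The share of all tested genes called towards ly_A was 18.1%. Cyp2d22, which has been put forward as the mouse counterpart of human CYP2D6, was 2.10-fold higher in ly_A by the authors' deposited table (log2 1.07, adjusted p = 1.65e-05). Cyp2d9, a testosterone hydroxylase known for higher levels in male than in female mouse liver, was 1.96-fold higher in ly_A by the authors' deposited table (log2 0.97, adjusted p = 0.0398). Cyp2d10 was 1.82-fold higher in ly_A by the authors' deposited table (log2 0.87, adjusted p = 0.000268). Among these 3, Cyp2d9 had the largest adjusted p, and its call ended at an adjusted p under 0.01. Cyp2d26 had a log2 value of -0.24 by the authors' deposited table (adjusted p = 0.304) and did not pass. Differences between one gene and another were not tested.

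Cyp2d9 and Cyp2d10 are the most alike of the 4 Cyp2d genes, with coding sequences identical at 92.5% of aligned bases. Cyp2d26 was identical to Cyp2d10 at 81.6% and to Cyp2d9 at 81.5% of aligned bases. Cyp2d22 was identical to the other 3 genes at 78.1% to 78.4%. The promoters of Cyp2d9 and Cyp2d10 were identical at 82.9% of aligned bases, against 50.7% for Cyp2d9 and Cyp2d26 and 50.3% for Cyp2d10 and Cyp2d26. The last 110 bases before the start are shown for these 3 genes, to set the promoters of the pair called higher in ly_A beside that of the gene that did not pass. Capitals mark TTTATA, the letters TATAAA read on the opposite strand.
Cyp2d9: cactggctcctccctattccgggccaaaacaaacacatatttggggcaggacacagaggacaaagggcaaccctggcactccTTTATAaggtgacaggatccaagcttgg
Cyp2d10: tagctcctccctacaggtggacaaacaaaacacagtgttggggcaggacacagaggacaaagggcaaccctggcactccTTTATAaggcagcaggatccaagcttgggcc
Cyp2d26: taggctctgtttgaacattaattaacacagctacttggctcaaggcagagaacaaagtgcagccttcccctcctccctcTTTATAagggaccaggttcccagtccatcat
They lie at chr15:82452267-82452376 on the plus strand, chr15:82407195-82407304 on the minus strand, and chr15:82794246-82794355 on the minus strand (RefSeq, GRCm38.p6). Cyp2d9 and Cyp2d10 share a run of 51 identical bases here, which ends within a few bases after the capitals. The longest run that either gene shares with Cyp2d26 was 10 bases. These letters describe the reference genome and were not measured in the libraries.

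Cyp2j5 and Cyp2u1, which act on fatty acids, were both higher in ly_A. Cyp2j5, an epoxygenase of arachidonic acid in liver and kidney, was 2.11-fold higher in ly_A by the authors' deposited table, at a log2 value of 1.08. Its adjusted p of 3.65e-08 was the smallest of the 10 genes by the authors' deposited table. Cyp2u1, a hydroxylase of long-chain fatty acids known from brain and thymus, was 3.53-fold higher in ly_A by the authors' deposited table (log2 1.82, adjusted p = 1.65e-05). This was the largest difference of the 10 genes, and 6.45% of all tested genes had a higher log2 value by the authors' deposited table. Cyp2u1 also stands apart in structure, with 5 exons in the transcript of its longest coding sequence in GENCODE M21, where Cyp2d22 has 10 and the other 8 genes have 9. Its coding sequence of 530 codons was identical to those of the other 9 genes at 51.9% to 54.0% of aligned bases.

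Promoter sequences were at hand for 8 of the 10 genes, all but Cyp2d22 and Cyp2u1. On either strand, the TATA-type letters TATAAA stood in 8 of these 8 promoters, against 13.6% of 32851 promoters of the same length. In Cyp2d9, Cyp2d10, Cyp2d26 and Cyp2j5 they stood on the opposite strand, in Cyp2j5 at position -128. The 8 promoters are not independent cases. Identity was 97.7% for Cyp2a4 and Cyp2a5, 84.2% for Cyp2a12 and Cyp2a22, and 82.9% for Cyp2d9 and Cyp2d10. The letters TTGNNNAA, part of the C/EBP-type motif, stood in Cyp2a4 and Cyp2a5, 2 of the 8, against 36.7% of all promoters. The STAT5-type letters TTCNNNGAA stood in 0 of the 8 and in 8.30% of all promoters. The antioxidant response letters TGACNNNGC stood in 0 of the 8 and in 12.4% of all promoters. The DR1 repeat of nuclear receptors, with at most 1 mismatch, stood in 0 of the 8 and in 0.554% of all promoters. No motif overlaps another in these promoters, and a match or its absence in 300 bases says nothing about whether a factor binds the gene.

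Several of these genes share stretches of transcript with other genes, and no source used here says how the authors' counting treated shared reads. The transcript of the longest coding sequence was cut into all windows of 50, 100 and 150 bases, and each was looked up in the transcripts of all other genes in GENCODE M21, on either strand. At 100 bases, 14.8% of the windows of Cyp2d10 were found letter for letter in another gene, most often in Cyp2d11. The share was 14.4% for Cyp2a5 and 11.2% for Cyp2a4, each shared most often with the other. It was 9.86% for Cyp2d9, 6.83% for Cyp2a12 and 6.36% for Cyp2a22. For Cyp2d22 and Cyp2d26 it was 0.225% and 0.375%, and for Cyp2j5 it was 0. The values of Cyp2a4, Cyp2a5, Cyp2a12, Cyp2a22, Cyp2d9 and Cyp2d10 are therefore uncertain as values of single genes, those of Cyp2d22, Cyp2d26 and Cyp2j5 less so. Of the windows of Cyp2u1, 10.4% were shared, all with 4930534D22Rik, an antisense gene that overlaps it by 585 bases on the opposite strand. No source used here says whether the counting used strand, so reads of Cyp2u1 and of this antisense gene could not be told apart in that stretch. Other genes described here overlap annotated genes too. The span of Cyp2d9 overlaps pseudogenes by 3049 and 1172 bases on the same strand, and by 253 bases on the opposite strand. Cyp2a22 overlaps a pseudogene by 7754 bases and Cyp2a4 an antisense gene by 118 bases, both on the opposite strand. Cyp2d9 and Cyp2d10 each overlap a miRNA gene by 60 bases on the same strand. None of the overlapping genes has a value in the authors' deposited table.

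**Figure D2:**
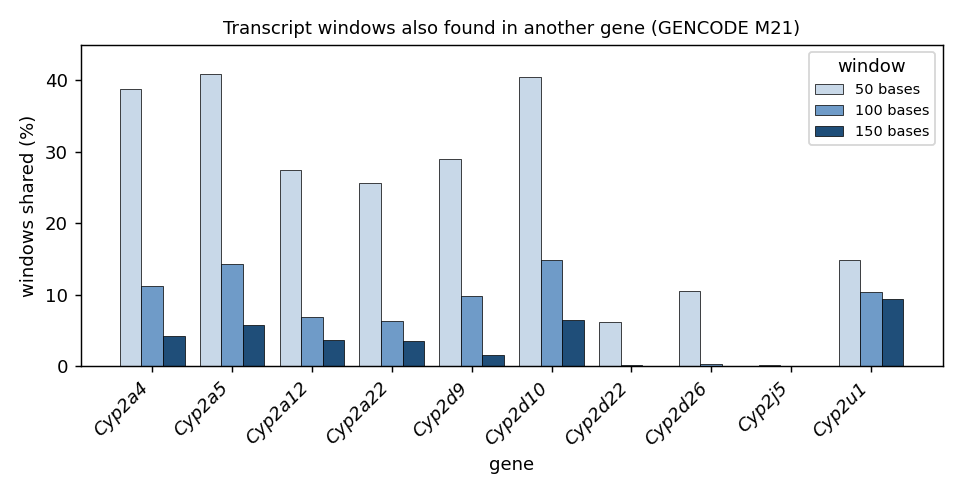
Share of transcript windows of each gene, in percent, that were found letter for letter in a transcript of another gene, for windows of 50, 100 and 150 bases. Cyp2a and Cyp2d genes other than Cyp2d22 and Cyp2d26 reach 25.7% to 40.8% at 50 bases, while Cyp2j5 stays at 0.174% and Cyp2u1 keeps 9.39% at 150 bases.

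The other genes of the 4 subfamilies moved the same way where they passed. Of 7 found, 6 were tested, of which 3 were higher in ly_A and 0 in ly_B by the authors' deposited table, with a median log2 of 0.77. The shares of all tested genes were 18.1% and 17.7%. Cyp2j9 was 2.84-fold higher in ly_A by the authors' deposited table (adjusted p = 4.47e-06). Cyp2j6 was 1.90-fold higher (log2 0.92, adjusted p = 0.00621) and Cyp2d40 was 1.53-fold higher (log2 0.61, adjusted p = 0.00821) in ly_A by the authors' deposited table. Cyp2d12 at 1.25, Cyp2j8 at 0.60 and Cyp2d11 at -0.40 did not pass by the authors' deposited table (smallest adjusted p = 0.367), and Cyp2d34 was not tested.

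Read along chromosomes 7 and 15, called genes lie beside genes that did not pass. In the chromosome 7 cluster, Cyp2a5, Cyp2a22, Cyp2a12 and Cyp2f2 follow each other, with log2 values of 0.94, 0.49, -0.34 and -0.84 by the authors' deposited table. Of these, Cyp2a5 was higher in ly_A, and Cyp2f2, a P450 of hepatocytes around the portal vein, was higher in ly_B by the authors' deposited table (1.79-fold, adjusted p = 0.000537). Cyp2g1, the gene before Cyp2a5, was also higher in ly_A by the authors' deposited table (log2 3.52, adjusted p = 0.0469). Cyp2t4, the gene after Cyp2f2, had a log2 value of 1.75, and Cyp2b10, nearer the other end of the cluster, had -1.08. Neither passed by the authors' deposited table (smallest adjusted p = 0.0834), and a trend along the cluster was not tested. In the chromosome 15 cluster, Cyp2d22 at one end was called and Cyp2d26 at the other end was not. On chromosome 4, Cyp2j6, Cyp2j9 and Cyp2j5 lie side by side, and all 3 were higher in ly_A by the authors' deposited table. Cyp2u1 lies alone on chromosome 3.

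**Figure D3:**
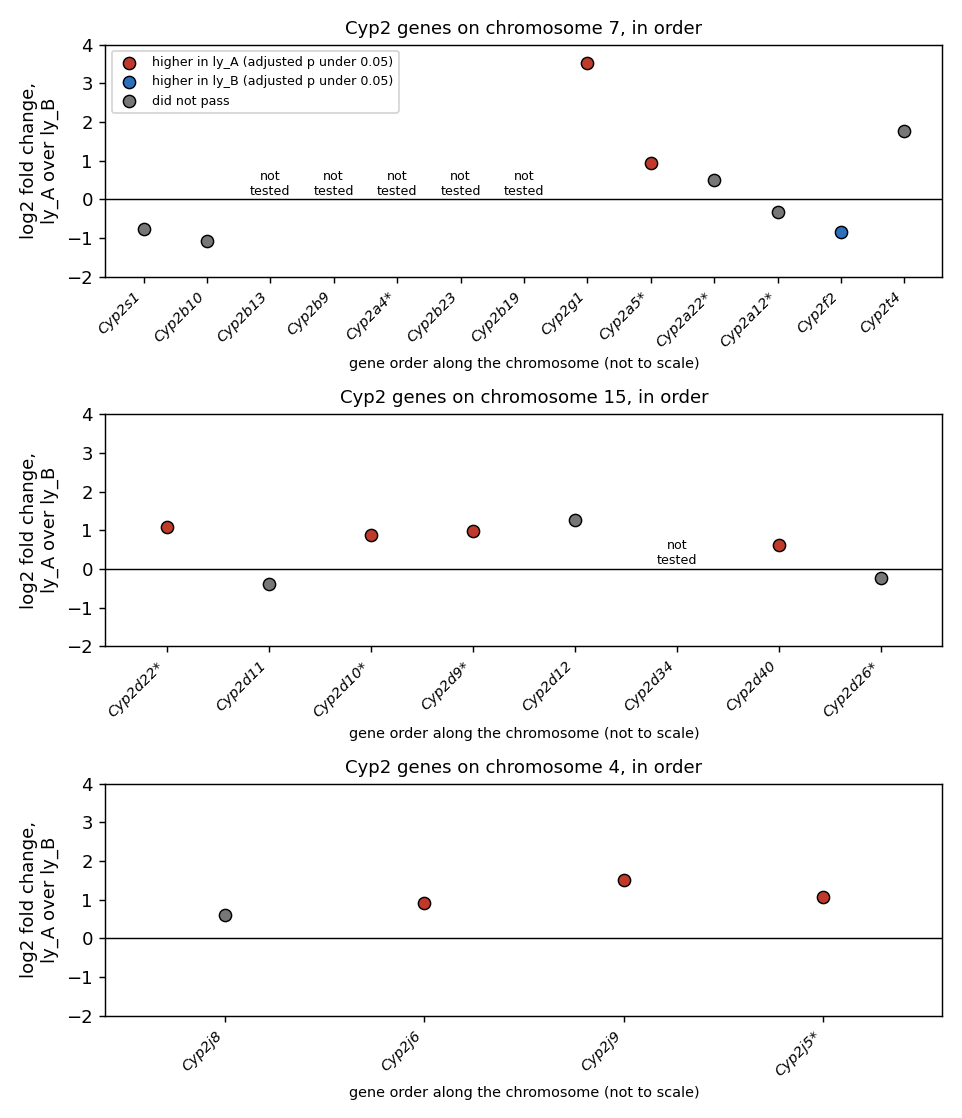
Log2 fold change, ly_A over ly_B, of the Cyp2 genes of the authors' deposited table in their order along chromosomes 7, 15 and 4 in the RefSeq annotation of GRCm38.p6, with the genes described here marked by an asterisk. Cyp2a5 (0.94), Cyp2d22 (1.07), Cyp2d10 (0.87), Cyp2d9 (0.97) and Cyp2j5 (1.08) are called higher in ly_A, while Cyp2f2 (-0.84) is called higher in ly_B.

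The remaining Cyp2 subfamilies spanned a wider range of differences. Of 21 tested genes, 13 were higher in ly_A and 1 was higher in ly_B by the authors' deposited table, with a median log2 of 1.94. The shares of all tested genes were 18.1% and 17.7%. The range of the 9 tested genes described here was -0.34 to 1.82 by the authors' deposited table, and that of the 21 was -1.08 to 11.91. The upper end rests on Cyp2c69 at 11.91 and Cyp2c40 at 10.34, with Cyp2c38 next at 5.14 by the authors' deposited table. How many reads lie behind these values was not examined. Among the 13 tested Cyp2c genes, 11 were higher in ly_A and the median log2 was 2.18 by the authors' deposited table. Cyp2e1, the P450 known to turn CCl4 into radicals, was higher by a factor of 14.7 in ly_A by the authors' deposited table (adjusted p = 9.00e-50). Shared reads were not examined for these subfamilies, and the difference between subfamilies was not tested.

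**Figure D4:**
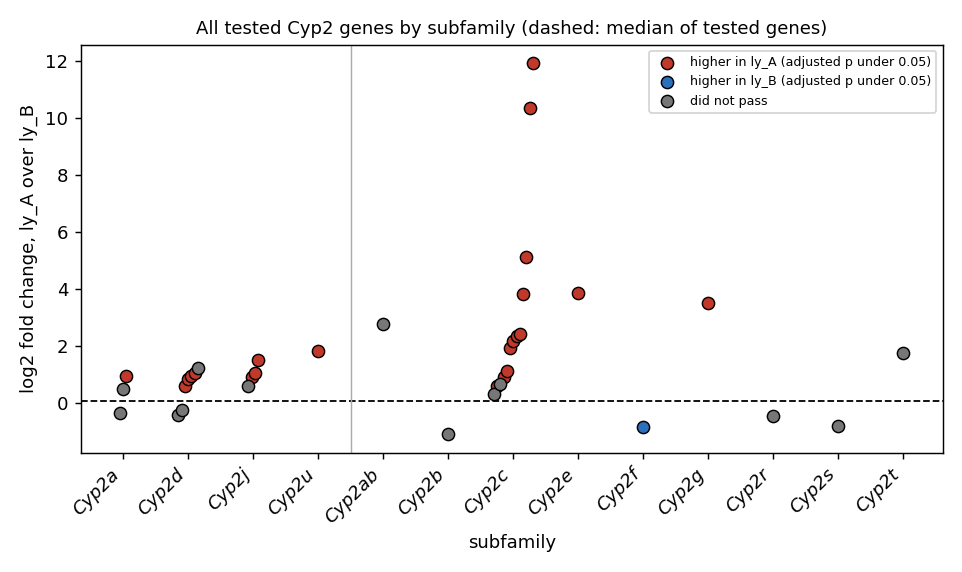
Log2 fold change, ly_A over ly_B, of every tested Cyp2 gene by subfamily, from the authors' deposited table, with the dashed line at the median of all tested genes (0.07). Tested Cyp2a, Cyp2d, Cyp2j and Cyp2u genes, left of the grey line, span -0.40 to 1.82, and Cyp2c genes reach 11.91.

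Genes that regulate P450 levels or supply the enzymes with electrons and haem were called in both directions, more often towards ly_A. Of 45 genes listed, all tested, 16 were higher in ly_A and 8 in ly_B by the authors' deposited table, with a median log2 of 0.23. These were 35.6% and 17.8% of the list, where the shares of all tested genes were 18.1% and 17.7%. Among 25 regulators, 9 were higher in ly_A and 4 in ly_B. The drug receptors Nr1i2 (PXR) and Nr1i3 (CAR) were 3.47-fold and 2.66-fold higher in ly_A by the authors' deposited table (largest adjusted p = 0.000114). Bcl6, a repressor known for its part in sex-biased liver expression, was 4.94-fold higher in ly_A by the authors' deposited table (adjusted p = 1.03e-08), and the transcription factor Cebpb was 3.22-fold higher (adjusted p = 1.37e-15). Stat5b, which carries the growth hormone signal, was 1.73-fold higher in ly_A by the authors' deposited table (adjusted p = 0.00014). Hnf4a, a main driver of hepatocyte genes, had a log2 value of -0.05 (adjusted p = 0.876), and Nfe2l2 (NRF2), known to raise Cyp2a5, had -0.36 (adjusted p = 0.168) by the authors' deposited table. Onecut1 and Foxa3, transcription factors of hepatocytes, were 16.5-fold and 2.09-fold higher in ly_B by the authors' deposited table (largest adjusted p = 4.41e-06). Socs2, a target and brake of growth hormone signalling, was 1.81-fold higher in ly_B by the authors' deposited table (adjusted p = 0.00531). Of the 4 growth hormone route genes, with Socs2 among them, 1 was higher in ly_A, 1 in ly_B and 2 did not pass.

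Electron supply and haem genes were split as well. Por, the oxidoreductase that feeds every microsomal P450, had a log2 value of 0.82 by the authors' deposited table and did not pass (adjusted p = 0.0631). Cyb5a, the microsomal cytochrome b5, was 1.66-fold higher in ly_A by the authors' deposited table (adjusted p = 0.00765), and Cyb5b, its mitochondrial relative, was 1.46-fold higher in ly_B (adjusted p = 0.00594). Of 11 haem genes, 5 were higher in ly_A and 2 in ly_B by the authors' deposited table. Uros, a middle step of haem synthesis, was 2.32-fold higher in ly_A by the authors' deposited table (adjusted p = 7.75e-07). The later steps were called in both directions. Cpox and Fech were 1.76-fold and 1.49-fold higher in ly_B (largest adjusted p = 0.022). Ppox was 1.56-fold higher in ly_A by the authors' deposited table (adjusted p = 0.0439). Alas1, the rate-limiting enzyme, had a log2 value of -0.43 by the authors' deposited table and did not pass (adjusted p = 0.627). The part of these genes in the P450 values was not tested.

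**Figure D5:**
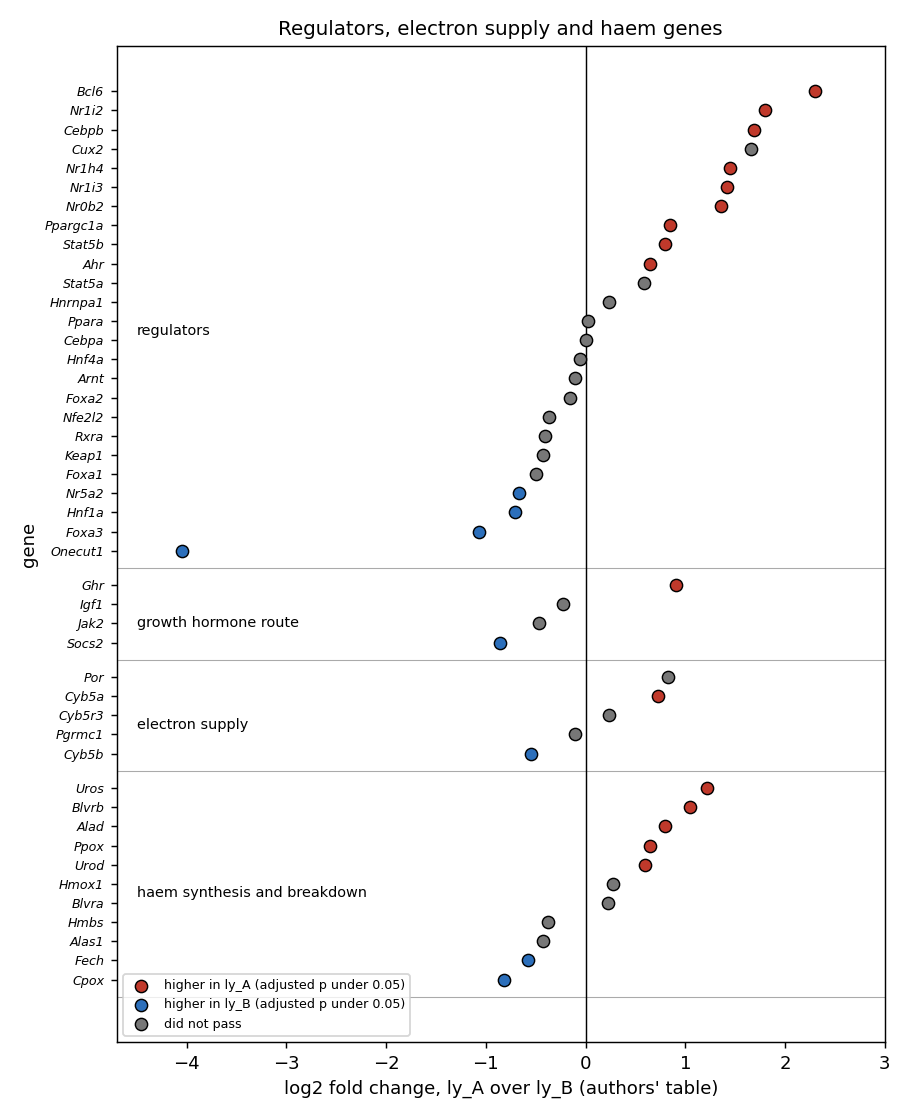
Log2 fold change, ly_A over ly_B, of 45 regulators, growth hormone route genes, electron supply genes and haem genes from the authors' deposited table. Red points were called higher in ly_A (16 genes), blue points higher in ly_B (8 genes) and grey points did not pass (21 genes), with Bcl6 (2.30) and Onecut1 (-4.05) at the ends.

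Of 9 hepatocyte markers listed, 8 were tested, and markers of several other cell types were called in the same direction as the P450 genes. Alb, which encodes albumin, had a log2 value of 0.19 by the authors' deposited table and did not pass (adjusted p = 0.565). Of the 8 hepatocyte markers, 4 were higher in ly_A and 2 in ly_B. Of 8 tested markers of hepatocytes around the central vein, 5 were higher in ly_A and 0 in ly_B, and of 8 around the portal vein, 2 and 2. Of 6 endothelial markers, 5 were higher in ly_A, as were 4 of 7 macrophage markers and 4 of 6 markers of T, B and NK cells, with 0 higher in ly_B in each of these lists. The macrophage markers called were Clec4f, Timd4, Vsig4 and Csf1r. Adgre1 at a log2 value of 0.33, Cd68 at -0.20 and Lyz2 at -0.10 did not pass. Of 6 cholangiocyte markers and 6 tested markers of activated stellate cells, 1 each was higher in ly_B and 0 in ly_A. These were Sox9 (3.21-fold, adjusted p = 1.54e-13) and Timp1 (24.9-fold, adjusted p = 1.41e-10) by the authors' deposited table. Of 2 tested intestine markers, 1 was higher in ly_A, and no marker of kidney or lung was tested. Over all tested genes the shares called were 18.1% towards ly_A and 17.7% towards ly_B. The marker counts come from the authors' deposited table, and the part of cell composition in the P450 values was not tested.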

How the data were processed

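Per the labels' protocols, Trizol was used on liver tissue and NEBNext chemistry on the RNA. DESeq2 and the build mm9 are named in the submitters' processing notes. No source used here gives the aligner, the read counter or the annotation. The authors deposited one table whose log2 fold change, p-value and adjusted p-value per gene were used as deposited. The direction was taken from the table's name, and in the rows read by eye (the first ones and those of these subfamilies) a positive value went with higher values in ly_A. Another 18 columns of single libraries match no sample label and entered no calculation, so depth was not examined.

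An adjusted p of exactly 1 stood in 2312 rows. The other 14114 adjusted values equalled a Benjamini-Hochberg adjustment over those rows, to a relative difference of 9.47e-13, so the 2312 were treated as not tested. The adjustment was tested on simulated data. Sequences came from RefSeq (GRCm38.p6) and GENCODE M21, another build than mm9, and identity was counted over global alignments (Biopython 1.88). All 10 symbols matched in RefSeq. Tables were handled with pandas 2.3.3.

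Named genes are the 10 members, tested genes of their subfamilies, the 3 largest called differences per direction among regulators and supply genes, 10 genes fixed by name, and the called genes among the nearest neighbours of the members. Genes named beyond these were chosen after their values were seen. They are Cyp2d34, Cyp2f2, Cyp2g1, Cyp2t4, Cyp2b10, Cyp2c69, Cyp2c40, Cyp2c38, Uros, Cyb5b, Cpox, Ppox, Fech, Alas1, Tdg-ps, Sox9, Timp1 and the 7 macrophage markers. Members, lists and tests were chosen with earlier results of these data known. Calls were also made at a stricter threshold of 0.01, with a 2-fold minimum, with an adjustment over all 16426 rows, and with a Bonferroni adjustment.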

Additional observations from a re-analysis of the deposited data

How the results depend on the processing

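No direction changed under the 4 alternatives, which alter the call and not the deposited log2 value. With at least a 2-fold difference as well, 3 members were higher in ly_A (Cyp2d22, Cyp2j5 and Cyp2u1). So were 1542 of all tested genes (10.9%), 12 other Cyp2 genes and 8 regulators and supply genes. In that setting 1108 tested genes (7.85%), 0 other Cyp2 genes and 2 regulators and supply genes were higher in ly_B. Under the Bonferroni adjustment the same 3 members were higher in ly_A, with 646 tested genes (4.58%), 10 other Cyp2 genes and 7 regulators and supply genes. Higher in ly_B under Bonferroni were 679 tested genes (4.81%), 0 other Cyp2 genes and 2 regulators and supply genes. Fewer calls follow from the stricter rules themselves. At an adjusted p under 0.01 Cyp2d9 was no longer called, and with the adjustment over every row all 9 tested members kept their call or lack of one. In no setting was a member higher in ly_B. No paired analysis was possible because the library columns carry no label of a sample, and for the same reason no library was left out in turn.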

Other observations

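The genes next to the P450 clusters were not called in one direction. The 3 nearest genes on each side of every member that RefSeq lists as protein-coding and that are not P450 genes came to 29 genes, of which 19 were tested. Tdg-ps, one of the 29, is listed so by RefSeq although its symbol marks a pseudogene, and it is not among the genes of the authors' deposited table. Of the 19 tested neighbours, 3 were higher in ly_A and 6 in ly_B by the authors' deposited table, where the shares of all tested genes were 18.1% and 17.7%. Beside the Cyp2d cluster, Ndufa6 at a log2 value of 1.21 and Smdt1 at 0.55, both genes of mitochondrial proteins, were higher in ly_A, and Tcf20 at -0.73 was higher in ly_B by the authors' deposited table. Beside Cyp2j5, Fggy at 1.27 was higher in ly_A, and Hook1 at -1.37, Jun at -1.22 and Tm2d1 at -0.83 were higher in ly_B by the authors' deposited table. Hnrnpul1 at -0.76, before Cyp2a4, and Papss1 at -0.76, beside Cyp2u1, were higher in ly_B by the authors' deposited table.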
